A study of Homo sapiens with 6 samples.

Results

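The primary cilium is a single hair-like organelle that many cells build on a modified centriole, and it serves as an antenna for Hedgehog and other signals. Intraflagellar transport (IFT) trains carry material along its microtubules, with complex IFT-B and the kinesin-2 motor on the way to the tip and complex IFT-A and the dynein-2 motor on the way back. The BBSome, a coat of BBS proteins, moves membrane proteins out of and into the cilium. The transition zone, built of the MKS and NPHP protein modules, forms the gate at its base. Cells build a cilium mainly outside of division and take it down before mitosis.

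The 53 genes described here encode parts of these machines and were chosen by gene symbol, out of 19775 genes measured. No measured value entered the choice of a single gene, but the group was proposed with the cocoa minus control differences of these same arrays known. Its differences and calls are therefore a description and not independent evidence for the group. The genes fell into 11 of the IFT-B core, 5 of the IFT-B periphery, 6 of IFT-A with its adaptor TULP3, 2 of dynein-2, 10 of the BBSome and its chaperonin-like assembly factors, 14 of the MKS module, 3 of the NPHP module with CEP290, and the 2 centrosomal proteins CEP164 and CEP41. TTC21B, an IFT-A subunit whose probe set also carried a second gene symbol, was not counted.

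HT29 is an established human line from a colorectal adenocarcinoma. In the treated group 3 cultures received 500 µg of a polyphenolic cocoa extract, with no volume given, and in the control group 3 cultures received saline by the protocol, while the sample names call them untreated. All 6 cultures were started from 300000 cells in F12 medium with 7% serum, and RNA was taken after 24 h and read on 1 oligonucleotide array per culture. The labels do not tell if cultures of 1 group were independent, so the errors below measure the spread between these cultures, and the number of arrays limits the precision. Values are log2 expression that the authors centred on each probe set's median over the arrays. They show differences between arrays and no levels, so the identity of the cells cannot be read from them, no gene can be ranked by level, and for a gene with 1 probe set whose groups do not overlap the innermost values of both groups mirror each other around 0.

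Of the 53 cilium genes 20 were higher and 1 was lower with cocoa extract, and 32 did not pass the threshold, a Benjamini-Hochberg adjusted p of 0.05 in limma over all genes. Over all genes 13.5% were called, 7.36% as higher and 6.12% as lower. The log2 differences of the 53 ran from −0.26 to 0.88 with a median of 0.17, against a median of −0.01 over all genes. The sign was positive in 42 of the 53, and in 9184 of all 19775 genes. All 3 cocoa arrays lay above all 3 controls in 29 of the 53 genes, where this was so in 15.4% of all genes, and below them in 2, against 17% of all genes. In bulk RNA a change in every cell and a change in a few cells cannot be told apart.

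**Figure D1:**
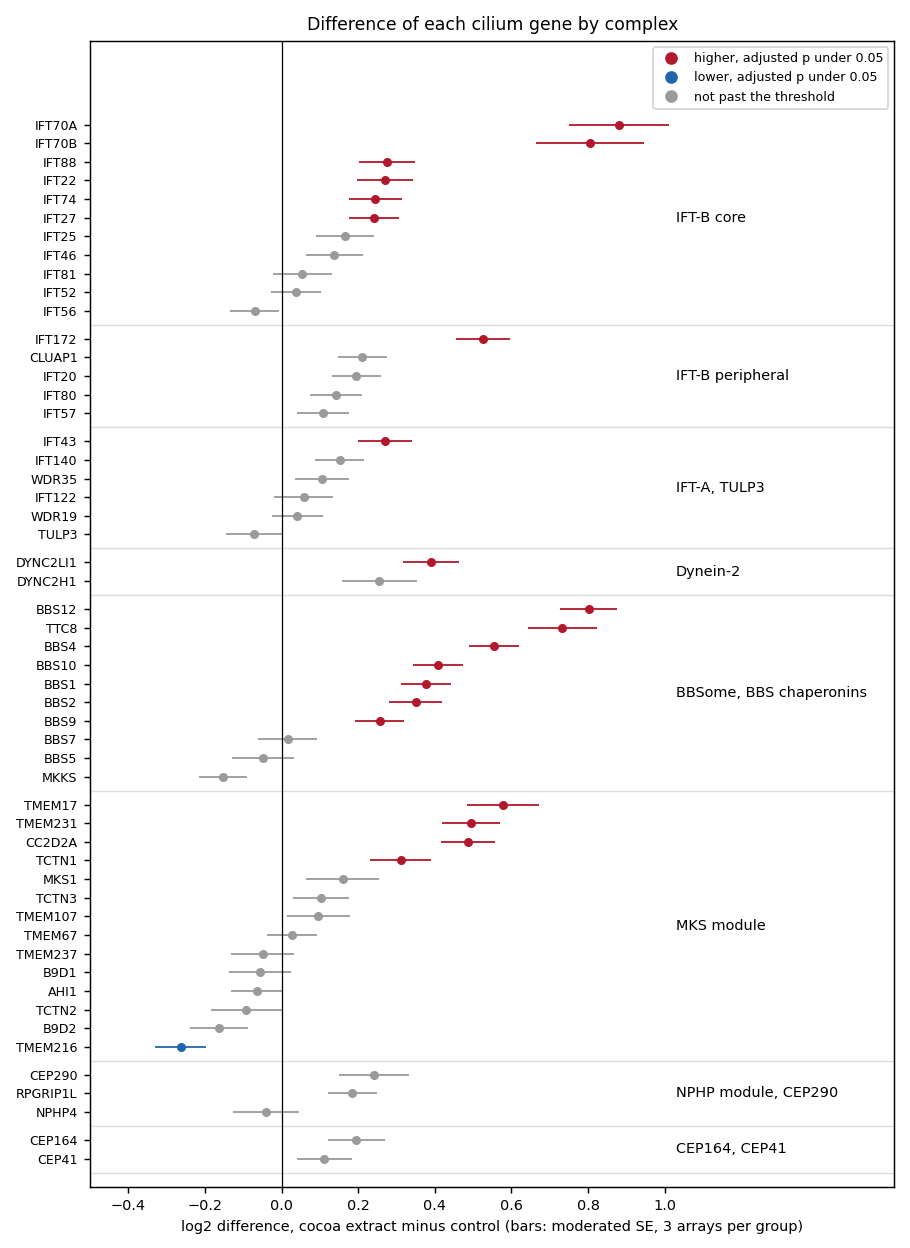
Log2 difference (cocoa extract minus control) of each of the 53 cilium genes, grouped by complex, with the moderated standard error as bars (3 arrays per group). Red points are genes called higher, the blue point is TMEM216, called lower, and grey points did not pass the threshold.

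The promoters of many cilium genes hold the X-box, the binding motif of RFX transcription factors, which are known regulators of cilium genes. It was searched as GTTNCC, 1 to 3 bases, then GGNAAC, with at most 1 mismatch over its 10 fixed letters, in windows from 250 bases before to 50 after a gene's start (RefSeq, GRCh38.p14). The motif equals its own reverse complement, so the search covers both strands. Sequences are shown for the 6 called genes with the largest differences among those with a match, because they are the promoter letters that go with the changed transcripts. Each runs 5′ to 3′ on the gene's strand, with the match in capitals and the bases around it in lower case.

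IFT70A: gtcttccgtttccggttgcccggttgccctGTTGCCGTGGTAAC
IFT70B: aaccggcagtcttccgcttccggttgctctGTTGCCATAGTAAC
TMEM17: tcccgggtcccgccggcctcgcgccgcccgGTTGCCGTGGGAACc
IFT172: tgcggctgcgtggcggGTTGTCCAGGTAAC
TMEM231: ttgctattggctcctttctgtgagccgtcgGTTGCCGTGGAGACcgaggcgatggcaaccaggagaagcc
DYNC2LI1: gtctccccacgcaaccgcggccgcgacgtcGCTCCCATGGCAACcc

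The stretch of IFT70A lies at chr2:177618727-177618770 and that of IFT70B at chr2:177552789-177552832, both on the minus strand. Those of TMEM17 (chr2:62506196-62506240), IFT172 (chr2:27489702-27489731) and TMEM231 (chr16:75556253-75556322) are also on the minus strand, and that of DYNC2LI1 (chr2:43773993-43774038) is on the plus strand. IFT70A and TMEM17 matched all 10 letters, and the other 4 had 1 mismatch. The match began 40 bases before the start in TMEM231, 16 before it in DYNC2LI1, 15 before it in TMEM17 and 6 before it in IFT70B. It began at base 3 of the transcript in IFT70A and at base 29 in IFT172.

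A promoter window was found for 48 of the 53 genes, and 19 of these (39.6%) held a match, against 1073 of 15384 measured genes with a window (6.97%). A match stood in 8 of 19 called genes (42.1%) and in 11 of 29 genes that did not pass (37.9%), and the difference between these shares was not tested. By complex, it was found in 9 of 12 MKS module genes, 4 of 10 IFT-B core genes and 2 of 5 IFT-B periphery genes. It was also found in 1 of 2 dynein-2 genes, 1 of 2 CEP genes, 1 of 5 IFT-A genes and 1 of 9 BBS genes. The NPHP module had it in 0 of 3 genes. Whether a match goes with a difference between the groups was not tested. A match is a run of letters and does not show that a factor binds there.

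**Figure D2:**
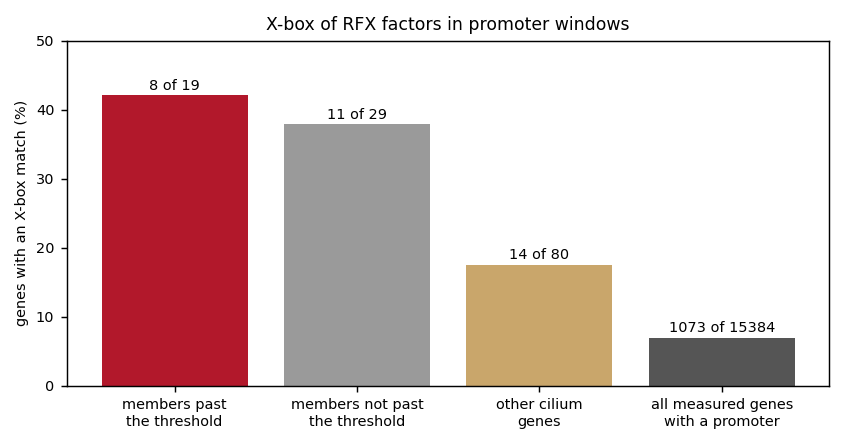
Share of genes (%) whose promoter window holds an X-box match, with the number of genes above each bar. The cilium genes past the threshold (8 of 19) and those not past it (11 of 29) stand above the other cilium genes (14 of 80) and all measured genes with a window (1073 of 15384).

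In the IFT-B core 6 of 11 genes rose, where 7.36% of all genes did, none fell and 5 did not pass. IFT70A and IFT70B, near-identical paralogs that wrap around other IFT-B subunits, had the largest differences. IFT70A had 0.64, 0.48 and 0.21 on cocoa arrays 1 to 3, against −0.63, −0.48 and −0.21 on control arrays 1 to 3. IFT70B had 0.68, 0.32 and 0.18 on the cocoa arrays, against −0.43, −0.61 and −0.18 on the controls. In both genes the groups were apart and array 3 of either group lay nearest to 0. The log2 difference was 0.88 (SE 0.13, 1.84-fold) for IFT70A and 0.80 (SE 0.14, 1.75-fold) for IFT70B (n = 3 arrays per group). With such similar transcripts the probe sets may read both, so that the genes are not independent readings.

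The other 4 risen genes of the core changed less. IFT88, whose loss in mice prevents cilium assembly, had 0.17, 0.16 and 0.07 with cocoa, against −0.09, −0.26 and −0.07 in controls (difference 0.28, SE 0.073). IFT22, a Rab-like small GTPase, had 0.087, 0.084 and 0.17 with cocoa, against −0.16, −0.26 and −0.054 in controls (0.27, SE 0.073). The cocoa and control values of IFT88 and IFT22 were separated by narrow gaps, with control array 2 the lowest in each. IFT74, which forms the tubulin-binding pair with IFT81, had 0.053, 0.11 and 0.13 with cocoa, against −0.053, −0.21 and −0.18 in controls (0.24, SE 0.069). IFT27, a Rab-like GTPase that helps the BBSome leave the cilium, had 0.12, 0.048 and 0.13 with cocoa, against −0.12, −0.21 and −0.098 in controls (0.24, SE 0.065). These 4 calls stood near the threshold, and none was kept in all 6 fits that left out 1 array. Among the 5 that did not pass, IFT25, the partner of IFT27, was the highest (0.17, SE 0.075), and IFT56 was the lowest (−0.07, SE 0.063).

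Of the 5 IFT-B periphery genes 1 rose and 4 did not pass (20% called, against 13.5% of all genes). IFT172, the largest IFT-B protein, had 0.38, 0.38 and 0.20 with cocoa, against −0.23, −0.20 and −0.20 in controls. All cocoa arrays lay clearly above the tight control values, with a difference of 0.53 (SE 0.071, 1.44-fold). The other 4 differences ran from 0.11 (IFT57) to 0.21 (CLUAP1, SE 0.064). IFT-A, the complex of the return trip, had 1 of 6 genes higher (16.7% called, near the 13.5% of all genes). IFT43 had 0.17, 0.063 and 0.18 with cocoa, against −0.11, −0.22 and −0.067 in controls (0.27, SE 0.071). The call of IFT43 was kept in 1 of the 6 fits that left out 1 array. The other 5 ran from −0.07 in TULP3, which links IFT-A to membrane cargo, to 0.15 in IFT140. Of the dynein-2 subunits, the light intermediate chain DYNC2LI1 had 0.32, 0.19 and 0.11 with cocoa, against −0.22, −0.19 and −0.13 in controls, and rose by 0.39 (SE 0.073). The heavy chain DYNC2H1 had 0.31, 0.017 and 0.052 with cocoa, against −0.23, −0.16 and 0.0065 in controls, and did not pass (0.26, SE 0.097). Its cocoa array 1 lay far above the other cocoa arrays.

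BBS genes were called most often, with 7 of 10 higher and none lower, against 7.36% and 6.12% of all genes. BBS12, which belongs to the chaperonin-like complex that assembles the BBSome, had 0.45, 0.46 and 0.31 with cocoa, against −0.48, −0.40 and −0.31 in controls. The groups lay far apart relative to the spread within each, with a difference of 0.80 (SE 0.075, 1.74-fold). BBS10 of the same complex had 0.24, 0.28 and 0.15 with cocoa, against −0.22, −0.17 and −0.15 in controls (0.41, SE 0.065). The third chaperonin-like gene, MKKS, had −0.042, −0.10 and −0.074 with cocoa, against 0.11, 0.026 and 0.11 in controls (−0.15, SE 0.063) and did not pass. Its cocoa arrays all lay below its controls.

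The BBSome subunits themselves were mostly higher. TTC8, also known as BBS8, had 0.25, 0.55 and 0.48 with cocoa, against −0.25, −0.39 and −0.28 in controls (0.73, SE 0.089, 1.66-fold). BBS4, a subunit that also binds centriolar satellite proteins, had 0.38, 0.24 and 0.30 with cocoa, against −0.23, −0.27 and −0.24 in controls (0.55, SE 0.065). For both genes the gap between the groups was wider than the spread within either. BBS1, the subunit that contacts the recruiting GTPase ARL6, had 0.16, 0.15 and 0.18 with cocoa, against −0.13, −0.28 and −0.23 in controls (0.38, SE 0.066). BBS2 had 0.18, 0.31 and 0.13 with cocoa, against −0.17, −0.14 and −0.13 in controls (0.35, SE 0.068). BBS9 had 0.14, 0.21 and 0.078 with cocoa, against −0.13, −0.10 and −0.11 in controls (0.26, SE 0.064). The values of these 3 were smaller, with every cocoa array above 0 and every control below it. The call of BBS9 was kept in 2 of the 6 fits that left out 1 array. BBS7 (0.02, SE 0.078) and BBS5 (−0.05, SE 0.082) did not pass, and their groups overlapped. BBIP1, a BBSome subunit that the choice by symbol did not take, also did not pass (0.21, SE 0.063, limma adjusted p = 0.0566). It was counted among the membrane GTPases and lipidated cargo below.

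**Figure D3:**
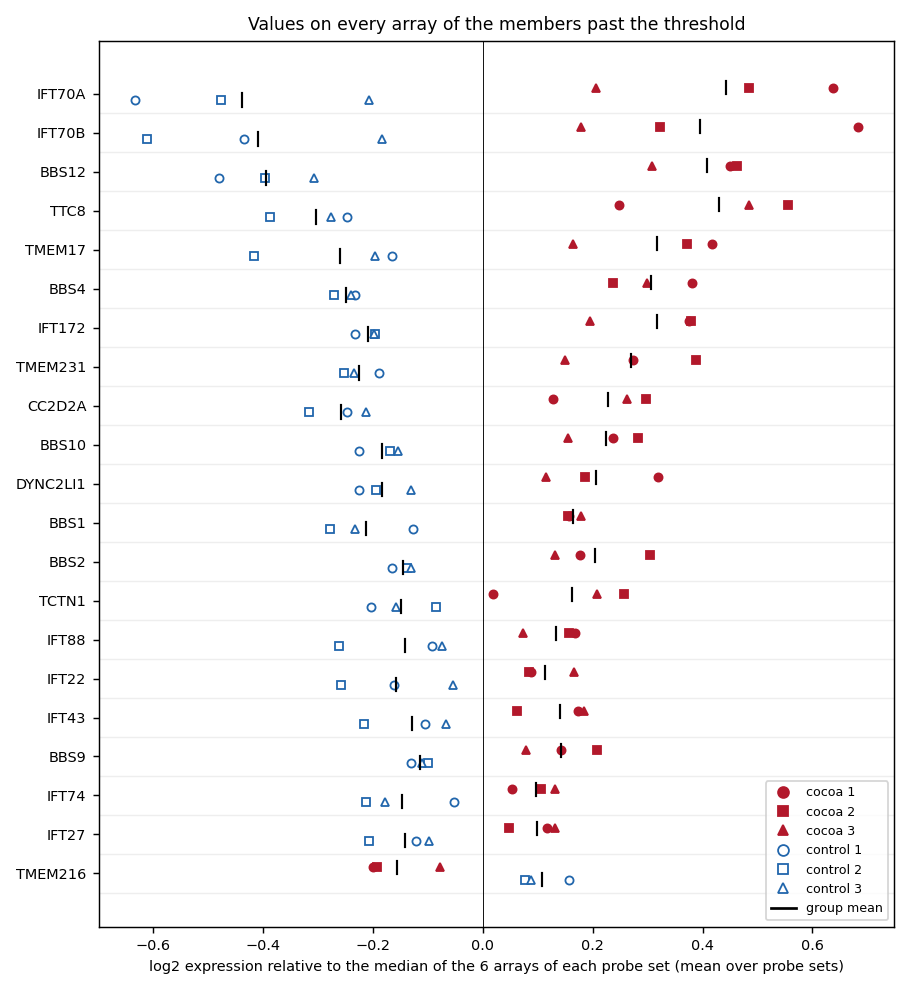
Values of the 21 called genes on every array (log2 relative to the median of the 6 arrays, averaged over a gene's probe sets). Cocoa arrays are filled red and stand above the open blue control arrays in each row, marker shape gives the array number and black bars are group means. In 20 genes all cocoa arrays lie to the right of all controls, and in TMEM216 all lie to the left.

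The MKS module was split, with 4 of 14 genes higher, 1 lower and 9 not passing (35.7% called, against 13.5% of all genes). TMEM17, a membrane protein of the gate, had 0.42, 0.37 and 0.16 with cocoa, against −0.16, −0.42 and −0.20 in controls (0.58, SE 0.094, 1.49-fold). TMEM231, which acts in the same membrane complex, had 0.27, 0.39 and 0.15 with cocoa, against −0.19, −0.25 and −0.23 in controls (0.50, SE 0.075). The groups were apart in both, and array 3 was the lowest of the cocoa arrays. CC2D2A, a coiled-coil and C2 domain scaffold of the module, had 0.13, 0.30 and 0.26 with cocoa, against −0.25, −0.32 and −0.21 in controls (0.49, SE 0.071). TCTN1, the tectonic protein first tied to Hedgehog signalling in mice, had 0.019, 0.26 and 0.21 with cocoa, against −0.20, −0.085 and −0.16 in controls (0.31, SE 0.079). Cocoa array 1 of TCTN1 lay close to its controls, and the call of TCTN1 was kept in 1 of the 6 fits that left out 1 array.

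TMEM216, a tetraspan membrane protein of the same module, was the only gene of the 53 called lower. It had −0.20, −0.19 and −0.077 with cocoa, against 0.16, 0.077 and 0.089 in controls (−0.26, SE 0.066). The groups did not overlap, but when single arrays were left out in turn, limma still called it in 1 of 6 fits (adjusted p between 0.0357 and 0.105). TMEM138 is its direct neighbour on chromosome 11, with no gene between them in the RefSeq table. It belongs to the list of other transition zone and planar polarity effector genes and fell by 0.28 (SE 0.065, limma adjusted p = 0.0221). That the 2 genes are neighbours was looked up after their values were seen. The 9 MKS genes that did not pass ran from −0.16 (B9D2) to 0.16 (MKS1). The NPHP module, which holds the inner part of the gate, had none of 3 genes past the threshold, with 0.24 (SE 0.092) for CEP290, 0.18 (SE 0.065) for its partner RPGRIP1L and −0.04 for NPHP4. CEP164, a distal appendage protein that docks the centriole at the membrane, had 0.20 (SE 0.075), and CEP41, needed for tubulin glutamylation in the cilium, 0.11 (SE 0.072).

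A gene's value is the mean of its probe sets, and these did not always read the same. The 53 genes had 132 probe sets, of which 28 were called higher and 2 lower, where 7.98% of all probe sets were called in either direction. Of the 21 called genes 9 had 1 probe set and 12 had several, and in 8 of these 12 all had the same sign. The exceptions were BBS1, DYNC2LI1, IFT27 and IFT43. The value of BBS1 came mainly from 1 of its 3 probe sets (0.93, SE 0.073), with 0.22 (SE 0.11) and −0.02 (SE 0.071) in the others, and the median over them was not called. In DYNC2LI1 the probe sets gave 0.76, 0.63, 0.20 and −0.03, and in IFT27 they gave 0.64, 0.19 and −0.10. Those of IFT43 gave 0.53, 0.39 and −0.10.

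Neither probe set of IFT74 was called singly. The only probe sets of IFT88 and TMEM216 were also not called in limma over all probe sets (adjusted p = 0.0853 and 0.0753). TMEM216, the gene called lower, thus had no called probe set. In CC2D2A the probe sets ran from 0.09 (SE 0.089) to 1.06 (SE 0.11), the largest single value of the set. Among genes not called, IFT81, RPGRIP1L and CEP41 each had a probe set called higher, with 0.36, 0.53 and 0.42, while the other probe set was negative in IFT81 (−0.25) and in RPGRIP1L (−0.16). AHI1, an MKS module gene, and TMEM237, a membrane protein of the gate, each had a probe set called lower (−0.33 and −0.34). The other probe set of TMEM237 gave 0.24, and the other 4 of AHI1 ran from −0.30 to 0.15, so the gene means of −0.07 for AHI1 and −0.05 for TMEM237 combine readings of opposite sign. BBS1, IFT22 and IFT172 have only probe sets with a suffix (_s_at, _x_at or _a_at) that marks matches to several transcripts.

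**Figure D4:**
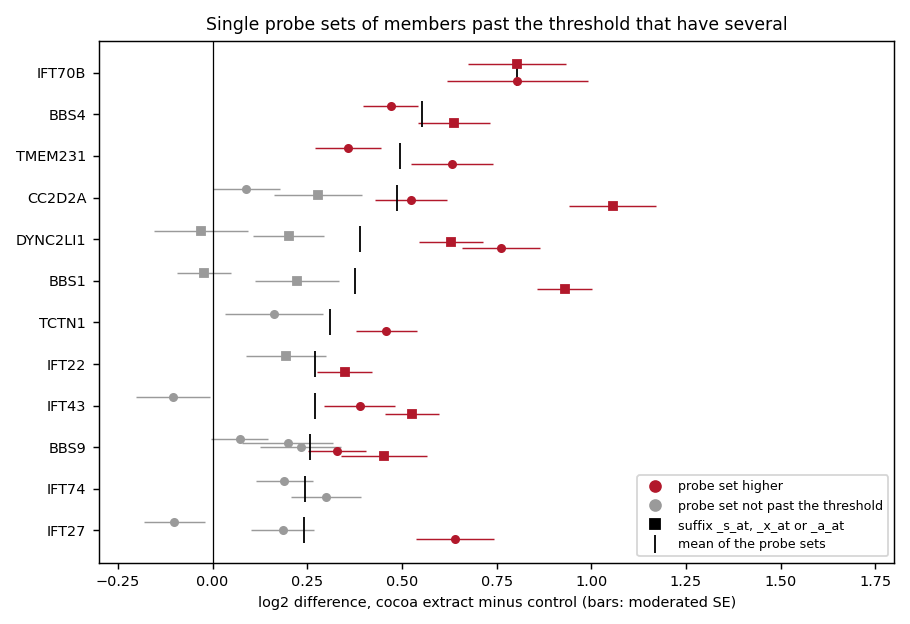
Log2 difference (cocoa extract minus control) of single probe sets, with the moderated standard error as bars, for the 12 called genes that have several. Squares carry a suffix for matches to several transcripts, and black marks are the means; both probe sets of IFT70B lie near 0.80, while those of CC2D2A, DYNC2LI1 and BBS1 spread from near 0 upward.

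Averaged over the 53 genes, the arrays stood at 0.13, 0.11 and 0.085 for cocoa arrays 1 to 3, against −0.089, −0.13 and −0.074 for control arrays 1 to 3. The genes above 0 numbered 42, 39 and 38 on the cocoa arrays, against 16, 9 and 16 on the controls. Among the 20 genes that rose, cocoa array 3 was the lowest cocoa array in 11. The signal of the 18S ribosomal RNA control probe sets was −0.51, 3.31 and 1.40 on cocoa arrays 1 to 3, against −1.12, 0.51 and −0.53 on the controls. The 5′ minus 3′ signal of actin and GAPDH, which falls with RNA breakdown, was 0.032, −0.26 and −0.052 on the cocoa arrays, against 0.028, 0.033 and 0.009 on the controls. Cocoa array 2, with the highest 18S and the lowest 5′ minus 3′ signal, was the highest cocoa array in 9 of the 20 genes that rose, cocoa array 1 in 6 and cocoa array 3 in 5. The mean over these 20 was 0.262, 0.268 and 0.190 on cocoa arrays 1 to 3, against −0.223, −0.272 and −0.172 on the controls. The part of RNA quality in these differences was not tested beyond the covariate fits. With either signal as a covariate 12 of the 53 were called, all higher, against 5.58% of all genes with 18S and 7.14% with the 5′ minus 3′ signal. Without control array 2 the count was 13, against 6.65% of all genes.

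The 93 other cilium-related genes fell into 8 lists of neighbouring functions. Of these 7 rose, 7 fell and 79 did not pass, with a median of 0.04, and the share called was 15.1% against 13.5% over all genes. List medians ran from −0.06 (cilium disassembly) to 0.17 (other transport and motor subunits), the latter near that of the 53 genes (0.17). Membrane GTPases and lipidated cargo had a median of 0.12. When each array was left out in turn, DISP1, DYNLT2B and PDE6D alone among the 14 called genes stayed called every time. Without control array 2 the count was 4 of 93, against 6.65% of all genes. Among 8 other transport and motor subunits 2 rose, 1 fell and 5 did not pass, with 7 positive and 37.5% called. KIF3A, a motor subunit of kinesin-2, rose by 0.46 (SE 0.11, limma adjusted p = 0.0219) and the dynein-2 light chain DYNLT2B by 0.48 (SE 0.089, adjusted p = 0.00801). The dynein-2 intermediate chain DYNC2I2 fell by 0.34 (SE 0.088, adjusted p = 0.0339), so called dynein-2 subunits lay on both sides.

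Of 17 basal body genes CEP19, which recruits the GTPase RABL2 to the cilium base, rose by 0.36 (SE 0.078) and EHD1, a membrane-shaping protein of the early ciliary vesicle, fell by 0.28 (SE 0.065), and 15 did not pass. Of 11 genes for membrane GTPases and lipidated cargo 1 rose and 10 did not pass. It was PDE6D, a carrier of prenylated proteins (0.35, SE 0.066, adjusted p = 0.00853). Of 18 other transition zone and planar polarity effector genes 1 rose, 2 fell and 15 did not pass. ALMS1, mutated in Alström syndrome, rose by 0.33 (SE 0.088), ANKS6 of the inversin compartment fell by 0.38 (SE 0.078), and TMEM138 fell as given above. The adjusted p of CEP19, EHD1, ALMS1 and ANKS6 in limma was 0.0156, 0.0211, 0.0383 and 0.0127. In these lists, in the order given, 11.8%, 9.09% and 16.7% of the genes were called, against 13.5% of all genes.

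Hedgehog signalling genes had 1 of 16 higher, 1 lower and 14 not passing (12.5% called, near the 13.5% of all genes). DISP1, which releases Hedgehog from the cells that make it, had 0.18, 0.42 and 0.14 with cocoa, against −0.33, −0.32 and −0.14 in controls (0.51, SE 0.090, limma adjusted p = 0.00658). GLI2, the main activating transcription factor of the pathway, fell by 0.25 (SE 0.070, adjusted p = 0.0486). The common pathway targets GLI1 (−0.19, SE 0.14, adjusted p = 0.435) and PTCH1 (0.15, SE 0.067, adjusted p = 0.182) did not pass. Of 6 transcription factors 1 rose (16.7% called, against 13.5% of all genes). It was RFX5, an RFX protein known mainly from MHC class II promoters (0.26, SE 0.062, adjusted p = 0.0247). The regulators tied to cilium genes did not pass, with −0.07 (SE 0.071) for RFX3, −0.03 (SE 0.11) for RFX2, 0.17 (SE 0.078) for RFX1, 0.16 (SE 0.070) for RFX7 and 0.11 (SE 0.13) for FOXJ1.

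Of 6 genes of cilium disassembly 2 fell, where 6.12% of all genes did, none rose and 4 did not pass. AURKA, the mitotic kinase that starts disassembly, had −0.059, −0.10 and −0.19 with cocoa, against 0.24, 0.045 and 0.20 in controls (−0.28, SE 0.075, adjusted p = 0.0387). KIF2A, a kinesin that depolymerises microtubules, had −0.075, −0.29 and −0.18 with cocoa, against 0.14, 0.075 and 0.17 in controls (−0.31, SE 0.073, adjusted p = 0.024). In both all cocoa arrays lay below all controls, as in 17% of all genes. Of the 6 fits without 1 array, 2 kept the call of AURKA and 1 kept that of KIF2A. None of 11 motile cilium and multiciliated cell genes was called, and none of 6 fibroblast, 3 endothelial and 3 immune marker genes. Of 10 colon epithelial markers 1, the cadherin CDH17, was higher (0.56, SE 0.12), where 7.36% of all genes were.

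**Figure D5:**
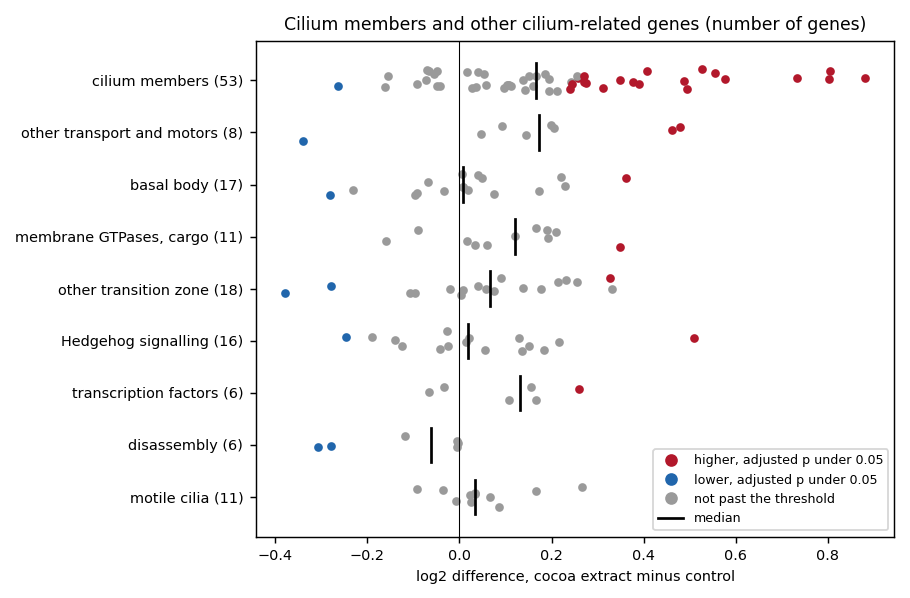
Log2 difference (cocoa extract minus control) of the 53 cilium genes and of 93 other cilium-related genes by list, with the number of genes in brackets. Red points were called higher, blue points lower and grey points neither, and black bars are medians. The cilium genes reach 0.88, while no gene of the other lists exceeds 0.51. The medians of the cilium genes and of other transport and motors both lie near 0.17.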

How the data were processed

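RNA of 6 HT29 cultures was read on Affymetrix U133 Plus 2.0 arrays, per the labels' protocols. The authors deposited log2 values from RMA, per the submitters' processing notes. GeneSpring GX is named in the series text, without a version or filters. Probe set medians never left 0 by more than 5e-07, which shows centring per probe set before deposit. That the logarithm has base 2 follows from RMA and is not written in the table. Detection and signal over background are unknown, and a filter on dim probe sets was not possible.

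Of 54613 probe sets (62 control probe sets aside) 41091 carried 1 gene symbol in the platform annotation, 1801 several and 11721 none. Probe sets with exactly 1 symbol were averaged per gene. Cocoa minus control was fitted over all 6 arrays and 19775 genes with limma 3.58.1 (lmFit, eBayes) in R 4.3.3, with Benjamini-Hochberg adjustment over all genes. An SE is limma's moderated standard error. The step was tested on simulated data. Promoters were searched with Python 3.11.15 and pandas 2.3.3, and figures drawn with matplotlib 3.10.9.

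The cilium genes, the related lists and the marker lists were chosen with earlier results of these data known. Genes with values on every array are those past the threshold (all cilium genes with an absolute difference of at least 0.3 are among them), with DYNC2H1, MKKS, DISP1, AURKA and KIF2A added after their values were seen; of each related list up to 4 called genes are named, with RFX1, RFX2, RFX3, RFX5, RFX7, FOXJ1, GLI1 and PTCH1 whatever their values. No 2 arrays were copies: the SD of the difference between 2 arrays of a group was 0.175 to 0.264. Alternatives were the replicate block, leaving out each array, quantile normalisation, centring of each array, a robust prior, array weights, the median of probe sets, leaving out probe sets with suffixes, both RNA quality covariates and a fold of 1.2.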

Additional observations from a re-analysis of the deposited data

How the results depend on the processing

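The share of all genes called, 13.5%, became 9.85% with the replicate block, 10.7% without probe sets of the suffixes _s_at, _x_at and _a_at, 5.58% with the 18S covariate, 7.14% with the 5′ minus 3′ covariate and 6.65% to 14.6% in the fits without 1 array (lowest without control array 2, highest without cocoa array 1), and the counts below are to be read against it. The 21 calls among the 53 cilium genes became 14 with the replicate block (all among the 21), 13 without the suffixes (45 of the 53 genes left), 12 with the 18S covariate, 12 with the 5′ minus 3′ covariate and between 13 and 16 in the fits without 1 array, the lowest without control array 2. Deviations of same-numbered arrays from their group means correlated at −0.12, −0.0089 and −0.0031 over genes, so no sign of pairing by number was seen. Differently numbered arrays ran from −0.11 to 0.12. With 3 arrays per group these correlations depend on each other and cannot exclude pairing. All 21 kept their sign under every alternative that measured them. BBS4, BBS10, BBS12, CC2D2A, DYNC2LI1, IFT70A, IFT70B, IFT172, TMEM17, TMEM231 and TTC8 also kept their call in each of these, and IFT172 is not measured without the suffixes. The calls of IFT27 and IFT88 were kept in 0 of the 6 fits without 1 array. The median difference of the cilium genes was 0.12 without the suffixes and 0.15 to 0.19 without 1 array, against 0.17. The 14 calls among the 93 related genes became 10 with the replicate block, 4 with the 18S covariate, 4 with the 5′ minus 3′ covariate and between 4 and 13 without 1 array (4 without control array 2, 5 without control array 1, 7 without cocoa array 3, 8 without control array 3, 9 without cocoa array 2). The calls of DISP1, DYNLT2B and PDE6D were kept in all 6 fits without 1 array. Differences that did not pass changed sign for FOXJ1 (−0.0486 to 0.203 in the fits without 1 array, lowest without cocoa array 2, −0.0829 with the 18S covariate, −0.0937 with the 5′ minus 3′ covariate), RFX2 (−0.116 to 0.0743 in the fits without 1 array, positive without cocoa array 1 or control array 3, 0.0220 with array weights) and RFX3 (0.0100 with the 5′ minus 3′ covariate). The causes were not tested. Signal over background is unknown for these genes.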
